A study of Mus musculus with 12 samples.

Results

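The proliferation and mitosis genes are a set of 34 genes of DNA replication, the mitotic kinases, the kinetochore, the spindle and cytokinesis, taken by gene symbol from a table of 49492 genes. All 34 had a row in the table, and 33 of them passed the filter on low counts that left 15542 genes for testing. Expression was measured by sequencing polyadenylated RNA from the left ventricle of mice, in 12 libraries that form 4 groups of 3. The groups are Alox5ko_TAC, Alox5ko_NS, WT_TAC and WT_NS, which cross genotype with treatment. Alox5ko stands for loss of Alox5, the enzyme that begins leukotriene synthesis, and WT for wild type. The series describes the deficiency as cardiac, and the labels name no Cre line, promoter, strain, age or sex. TAC stands for transverse aortic constriction, surgery that raises the pressure against which the left ventricle pumps. NS is the labels' name for the groups without it and is not spelled out there.

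A dividing cell first copies its DNA, which needs the MCM helicase, the sliding clamp PCNA and a supply of deoxynucleotides, and then drives mitosis through cyclin B and CDK1. Aurora and Polo-like kinases, the kinetochores and the spindle part the chromosomes, and the anaphase-promoting complex destroys cyclin B and securin so that the cell can divide. Most adult cardiomyocytes do not divide, while fibroblasts, endothelial cells and leukocytes of the heart can, and many of the mitosis genes share CCAAT boxes and a cell-cycle homology region in their promoters.

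Library totals ran from 20889431 to 27311196 counts, and the 34 members took 0.0084% to 0.0159% of them. Alox5 was at 0.934 to 1.46 CPM (counts corrected for library size, with TMM factors) in the 6 Alox5ko libraries and at 9.56 to 13.9 CPM in the 6 WT libraries, so each library matched its genotype label. The 8 cardiomyocyte markers summed to 151855 to 186777 CPM by library total, without TMM factors, as the left ventricle label calls for. Genes counted as called had an adjusted p under 0.05 in edgeR's quasi-likelihood test over all 12 libraries, and every adjusted p below comes from it unless DESeq2 is named. The comparisons share libraries with each other, so their values are given side by side and not as independent repeats. All members were measured in the same libraries, so a count of members is not a count of independent observations. In whole tissue, fewer cells of a type and less RNA per cell cannot be told apart.

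The members were expressed at low levels. Of the 34, 19 had a mean under 50 counts per library, 7 lay between 50 and 100, and 8 were above 100. Per gene length, Pcna led with a mean of 5.37 RPKM over the 12 libraries (reads corrected for gene length and library depth), followed by Ccna2 at 3.09, Mcm3 at 2.01, Mcm7 at 1.46, Mki67 at 1.42 and Cenpf at 1.33. Ranges over libraries overlapped between neighbours from Mcm3 to Cenpf, with Mcm3 at 1.61 to 2.64 RPKM and Mki67 at 0.474 to 2.64 RPKM. At the other end lay Ect2 at 0.0812, Ccnb1 at 0.0766 and Bub1 at 0.0391 RPKM. Of the 34 members, 11 had fewer than 10 counts in at least 1 library.

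**Figure D1:**
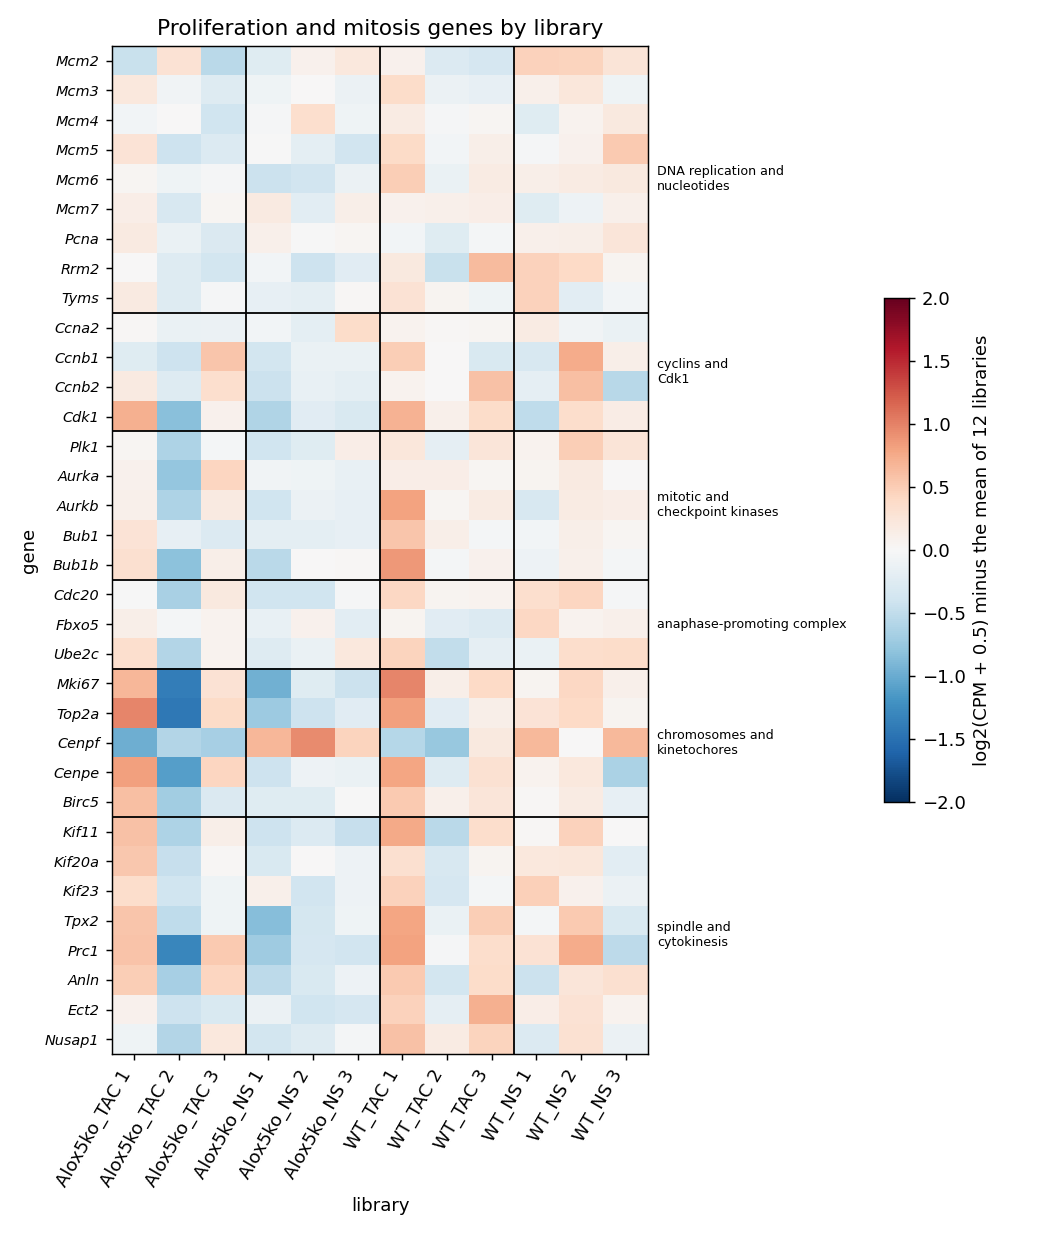
Level of the 34 members (rows, grouped by role) in the 12 libraries (columns), as log2(CPM + 0.5) minus the gene's mean over the libraries, red above and blue below that mean. Alox5ko_TAC 2 is blue for most mitosis genes and WT_TAC 1 is red for most, while Cenpf is high in the NS groups and low in all 3 Alox5ko_TAC libraries.

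Among the genes of DNA replication and nucleotide supply, 9 in all, none was called in any of the 7 comparisons, beside 0% to 5.08% of all genes by comparison. Mcm2, a subunit of the replicative helicase (chromosome 6, 88883474 to 88898780, GRCm38), had 3.90, 6.85 and 3.63 CPM in Alox5ko_TAC and 4.56, 5.85 and 6.49 CPM in Alox5ko_NS. Its level was 5.91, 4.5 and 4.27 CPM in WT_TAC, and in WT_NS 7.77, 7.64 and 6.68 CPM. The 3 WT_TAC libraries lay below the 3 WT_NS libraries, whereas the Alox5ko groups overlapped because Alox5ko_TAC 2 was the highest of those 6 libraries. Mcm2 had the smallest p of the members in WT_TAC against WT_NS, with a log2 fold change of -0.59 (SE 0.207, adjusted p = 0.226), and over both genotypes it had -0.41 (SE 0.147, adjusted p = 0.123). Without Alox5ko_TAC 2, the value over both genotypes was -0.58 and passed the threshold (SE 0.123, adjusted p = 0.00648). This was the only 1 of 12 fits without 1 library in which Mcm2 was called, and adjusted p reached 0.252 in the others. The library left out was the one that ran against the fall, so this call is no test of TAC. With no filter on low counts Mcm2 was also called, with adjusted p = 0.0145 in WT_TAC against WT_NS and 0.00817 over both genotypes.

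Pcna, the sliding clamp of the replicative polymerases, had 14.6, 11.6 and 10.4 CPM in Alox5ko_TAC and 13.8, 12.7 and 13.2 CPM in Alox5ko_NS. Its level was 12.3, 10.8 and 12.4 CPM in WT_TAC, against 13.7, 13.9 and 15.2 CPM in WT_NS. The WT groups did not overlap and the Alox5ko groups did. Over both genotypes the difference of TAC from NS was -0.19 on the log2 scale (SE 0.0827, adjusted p = 0.198), an interval of -0.37 to -0.021.

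Mcm5, another helicase subunit, had 2.88, 1.60 and 1.82 CPM in Alox5ko_TAC, 2.28, 1.94 and 1.64 CPM in Alox5ko_NS, 3.14, 2.19 and 2.54 CPM in WT_TAC, and 2.27, 2.46 and 3.54 CPM in WT_NS. All 4 groups overlapped. Its difference of TAC from NS over both genotypes was 0.015 (SE 0.172, adjusted p = 0.979), and that of Alox5ko from WT over both treatments was -0.40 (SE 0.172, adjusted p = 0.454). Mcm6, a further helicase subunit, had 4.16, 3.75 and 3.97 CPM in Alox5ko_TAC and 2.88, 2.98 and 3.69 CPM in Alox5ko_NS. In WT_TAC it had 5.87, 3.64 and 4.55 CPM, and in WT_NS 4.40, 4.58 and 4.66 CPM. Its 3 Alox5ko_NS libraries lay below both the 3 Alox5ko_TAC and the 3 WT_NS libraries. Alox5ko_NS against WT_NS gave -0.52 (SE 0.173, adjusted p = 0.590), the smallest p of the members in that comparison. Rrm2, the regulated subunit of ribonucleotide reductase, had 10 to 31 counts per library, and Tyms, which makes thymidylate, had 20 to 40.

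Of the cyclins and their kinase, Cdk1, which drives entry into mitosis, was a low gene with 48, 8 and 24 counts in Alox5ko_TAC and 14, 22 and 17 in Alox5ko_NS. The counts were 43, 27 and 32 in WT_TAC, and in WT_NS 13, 34 and 27. Alox5ko_TAC 1 was the highest and Alox5ko_TAC 2 the lowest of all 12 libraries in CPM, and TAC and NS overlapped in both genotypes. Over both genotypes Cdk1 had a log2 fold change of 0.64 for TAC against NS (SE 0.324, adjusted p = 0.302) and of -0.51 for Alox5ko against WT (SE 0.324, adjusted p = 0.650). Ccnb1, cyclin B1, had 4, 2 and 14 counts in Alox5ko_TAC, 3, 6 and 5 in Alox5ko_NS, 13, 7 and 3 in WT_TAC, and 3, 19 and 8 in WT_NS. At this depth its interval for TAC against NS ran from -0.90 to 1.26 around 0.18 (SE 0.512, adjusted p = 0.895). For Alox5ko against WT over both treatments the value was -0.72 (SE 0.514, adjusted p = 0.692).

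Ccna2, cyclin A2, was the flattest of this class, at 11.9 ± 0.724 CPM in Alox5ko_TAC, 13.2 ± 2.86 in Alox5ko_NS, 13 ± 0.229 in WT_TAC and 12.5 ± 1.44 in WT_NS (SD, n = 3 each). It shares 510 exon bases with Exosc9, on the opposite strand, which had a mean of 522 counts against 290 for Ccna2. Whether the counting used strand is not given in the sources used here, so its reads cannot be told apart from those of Exosc9. The same holds for Kif20a, with 1259 bases shared with Cdc23, Prc1, with 911 shared with Rccd1, Ube2c, with 592 shared with Tnnc2, and Mcm7, with 321 shared with Ap4m1 and 64 with Cops6. Smaller opposite-strand overlaps were found for Cdc20, Plk1 and Nusap1. Ccnb2, cyclin B2, had 3 to 21 counts, beside 1 to 12 counts for its annotated pseudogene Ccnb2-ps.

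Among the mitotic and checkpoint kinases, Bub1, a spindle checkpoint kinase, failed the filter, with 7, 2 and 1 counts in Alox5ko_TAC, 2, 2 and 2 in Alox5ko_NS, 10, 5 and 3 in WT_TAC, and 3, 5 and 4 in WT_NS, and was not tested. Plk1, which acts from mitotic entry to cytokinesis, had 2 to 18 counts, and Aurkb, the kinase of the chromosomal passenger complex, 2 to 23. Aurka, the centrosomal Aurora kinase, had 7 to 29. Bub1b, the checkpoint protein BubR1, was the most abundant of this class at 31 to 121 counts. None of the 4 tested kinases was called in any comparison, beside 0% to 5.08% of all genes by comparison.

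The 3 genes of the anaphase-promoting complex were Cdc20, its mitotic activator, Fbxo5, its inhibitor Emi1, and Ube2c, the ubiquitin-conjugating enzyme that works with it. None of them was called in any comparison, beside 0% to 5.08% of all genes by comparison. Fbxo5 had 11, 8 and 9 counts in Alox5ko_TAC and 8, 12 and 6 in Alox5ko_NS, and 9, 6 and 5 in WT_TAC against 15, 10 and 10 in WT_NS. Its WT groups did not overlap in CPM, with WT_TAC lower, and its Alox5ko groups did. The difference between the 2 TAC responses was 1.07 on the log2 scale (SE 0.597, adjusted p = 0.953), the smallest p of the members in the interaction.

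Cenpf, a large kinetochore protein that also binds the nuclear envelope (chromosome 1, 189640606 to 189688086, GRCm38), was the only member called, and it fell with TAC. It had 9.25, 12.2 and 11.6 CPM in Alox5ko_TAC, against 29.8, 36.1 and 25.5 CPM in Alox5ko_NS. In WT_TAC it had 12.4, 10.8 and 21.4 CPM, against 29.4, 18.7 and 29.3 CPM in WT_NS. The Alox5ko groups were far apart, whereas in WT the highest TAC library lay above the lowest NS library. Cenpf fell by 1.47 on the log2 scale in Alox5ko_TAC against Alox5ko_NS (SE 0.278, adjusted p = 0.0392), a level 0.361 times that without TAC. Over both genotypes it fell by 1.13 (SE 0.195, adjusted p = 0.0114). In WT_TAC against WT_NS the value was -0.80 and missed the threshold (SE 0.274, adjusted p = 0.265). Without WT_TAC 3, the WT_TAC library highest in Cenpf, it was -1.16 and passed it (adjusted p = 0.0494). This was the only 1 of 6 fits without 1 library with a call, and the others gave adjusted p from 0.166 to 0.581. The library left out was the one that ran against the fall, so this call is no test of TAC in WT. The difference between the 2 TAC responses of Cenpf, -0.67, did not pass the test (SE 0.388, adjusted p = 0.961).

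The call over both genotypes held in each of the 12 fits that left out 1 library, at -1.31 to -1.04 with adjusted p from 0.000477 to 0.0339. The call in Alox5ko alone was lost without any 1 of its 6 libraries, at -1.58 to -1.33 with adjusted p from 0.0644 to 0.143. Between genotypes Cenpf did not pass the test, with 0.24 for Alox5ko_NS against WT_NS (SE 0.263, adjusted p = 0.908), -0.43 for Alox5ko_TAC against WT_TAC (SE 0.285, adjusted p = 0.754) and -0.093 over both treatments (SE 0.194, adjusted p = 0.921). Cenpf was 1 of 33 tested members, 3.03%, and the share of all genes called was 1.34% in Alox5ko_TAC against Alox5ko_NS (0.611% lower) and 5.08% over both genotypes (2.19% lower). No exon of another annotated gene overlapped Cenpf.

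Mki67, the surface coat protein of mitotic chromosomes that is used as a proliferation marker (chromosome 7, 135689784 to 135716361, GRCm38), had 20.9, 4.70 and 16.0 CPM in Alox5ko_TAC and 6.42, 10.9 and 9.56 CPM in Alox5ko_NS. In WT_TAC it had 26, 14.1 and 17.3 CPM, and in WT_NS 13.5, 17.6 and 13.9 CPM. The highest library was WT_TAC 1 and the lowest Alox5ko_TAC 2. Its 3 Alox5ko_NS libraries lay below the 3 WT_NS libraries, and TAC and NS overlapped in both genotypes. TAC against NS gave 0.63 in Alox5ko (SE 0.487, adjusted p = 0.622), 0.35 in WT (SE 0.467, adjusted p = 0.851) and 0.49 over both (SE 0.338, adjusted p = 0.494). Alox5ko against WT gave -0.46 with TAC (SE 0.470, adjusted p = 0.856), -0.74 without it (SE 0.485, adjusted p = 0.836) and -0.60 over both (SE 0.338, adjusted p = 0.615). The interaction was 0.28 (SE 0.675) and was not called.

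Top2a, the topoisomerase that untangles sister chromatids (chromosome 11, 98992943 to 99024189, GRCm38), followed the same libraries, with 12, 1.87 and 7.79 CPM in Alox5ko_TAC and 3.36, 4.29 and 4.98 CPM in Alox5ko_NS. In WT_TAC it had 10.8, 4.93 and 6.43 CPM, and in WT_NS 7.18, 7.95 and 6.10 CPM. Alox5ko_TAC held both its highest and its lowest library, 6.41-fold apart, and Alox5ko_NS again lay wholly below WT_NS. TAC against NS gave 0.79 in Alox5ko (SE 0.561, adjusted p = 0.584), 0.057 in WT (SE 0.541, adjusted p = 0.983) and 0.42 over both (SE 0.390, adjusted p = 0.624). Alox5ko against WT gave -0.021 with TAC (SE 0.540, adjusted p = 0.997), -0.75 without it (SE 0.562, adjusted p = 0.854) and -0.39 over both (SE 0.390, adjusted p = 0.803). Cenpe, the kinetochore motor, had 16 to 98 counts and Birc5, survivin of the passenger complex, 6 to 33, each highest in Alox5ko_TAC 1 and lowest in Alox5ko_TAC 2.

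**Figure D2:**
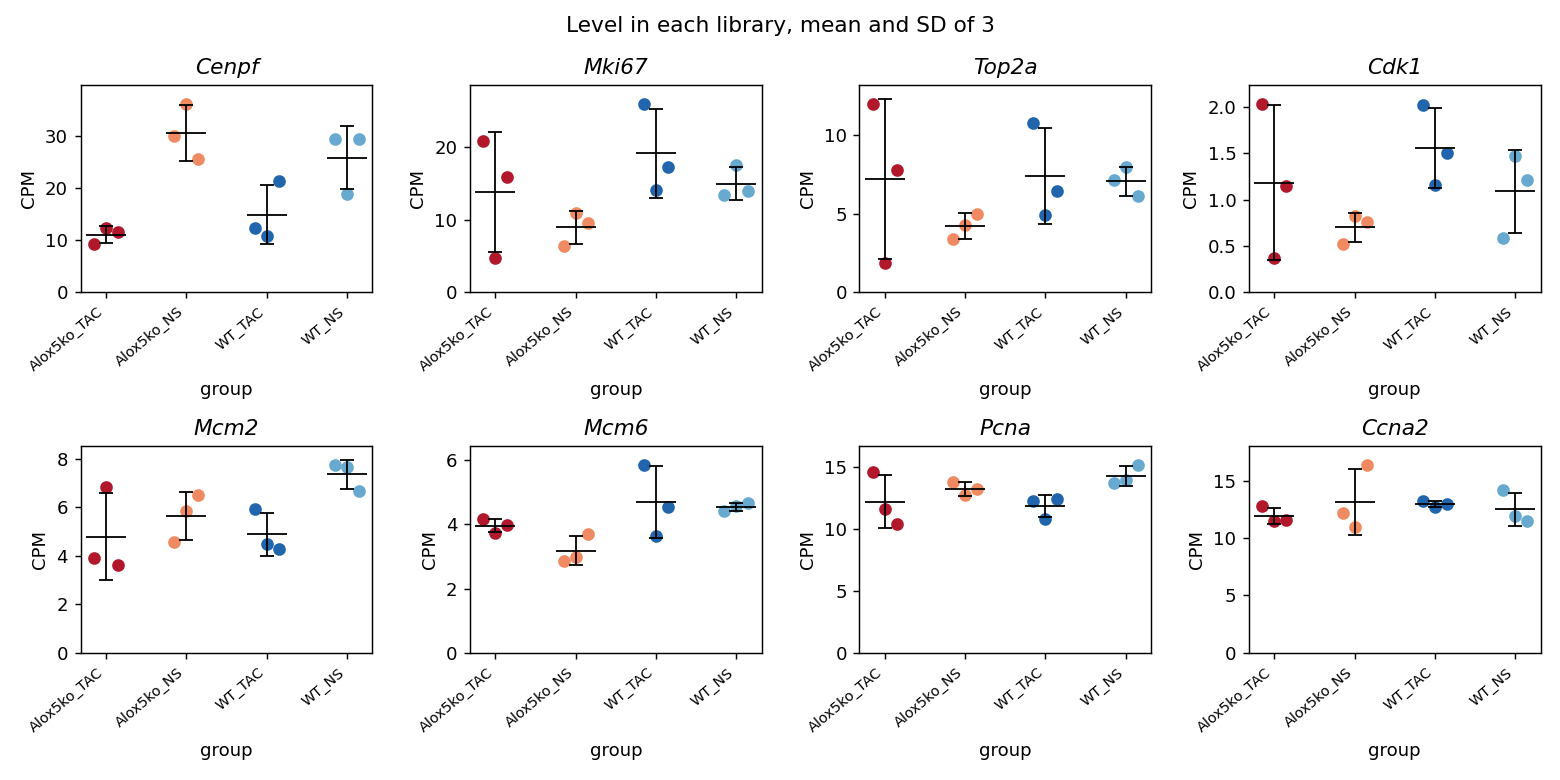
CPM of 8 members in every library (points), with the mean (long bar) and SD (error bar) of 3 libraries per group. Cenpf is at 9.25 to 12.2 CPM in Alox5ko_TAC and 25.5 to 36.1 CPM in Alox5ko_NS, while Mki67, Top2a and Cdk1 spread most within Alox5ko_TAC.

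The promoters of 4 members are shown because these members carry the contrast just described: Cenpf, which fell with TAC, Mki67 and Top2a, which followed single libraries, and Mcm2 of the replication genes. Each window runs from 250 bases before to 50 after the annotated start (RefSeq, GRCm38.p6) and is written 5′ to 3′ on the gene's strand. Capitals mark CCAAT, which reads ATTGG on the other strand, the cell-cycle homology region TTTGAA, which reads TTCAAA on the other strand, its variant TTTAAA, and the E2F-type motif GCGGGAA, which reads TTCCCGC there, all searched on both strands.
Cenpf (chr1:189688037-189688336, minus strand): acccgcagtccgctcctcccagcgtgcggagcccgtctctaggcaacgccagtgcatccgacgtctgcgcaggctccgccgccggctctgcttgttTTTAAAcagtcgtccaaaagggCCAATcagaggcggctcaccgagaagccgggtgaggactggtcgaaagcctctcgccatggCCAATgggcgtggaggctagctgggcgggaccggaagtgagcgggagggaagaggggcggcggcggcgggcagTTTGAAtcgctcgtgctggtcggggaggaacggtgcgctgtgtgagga
Mki67 (chr7:135716330-135716629, minus strand): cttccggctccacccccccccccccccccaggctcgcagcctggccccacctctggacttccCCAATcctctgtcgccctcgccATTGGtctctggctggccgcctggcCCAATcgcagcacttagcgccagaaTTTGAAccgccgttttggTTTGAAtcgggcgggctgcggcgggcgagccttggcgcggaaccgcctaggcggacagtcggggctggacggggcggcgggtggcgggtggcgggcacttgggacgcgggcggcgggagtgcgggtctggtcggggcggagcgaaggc
Top2a (chr11:99024140-99024439, minus strand): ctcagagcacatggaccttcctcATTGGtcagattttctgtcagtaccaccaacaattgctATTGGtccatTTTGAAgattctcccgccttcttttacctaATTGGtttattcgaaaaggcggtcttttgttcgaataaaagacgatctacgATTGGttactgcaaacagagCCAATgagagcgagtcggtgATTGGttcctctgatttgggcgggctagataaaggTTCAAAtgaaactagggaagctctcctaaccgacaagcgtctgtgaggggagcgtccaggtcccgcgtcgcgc
Mcm2 (chr6:88898731-88899030, minus strand): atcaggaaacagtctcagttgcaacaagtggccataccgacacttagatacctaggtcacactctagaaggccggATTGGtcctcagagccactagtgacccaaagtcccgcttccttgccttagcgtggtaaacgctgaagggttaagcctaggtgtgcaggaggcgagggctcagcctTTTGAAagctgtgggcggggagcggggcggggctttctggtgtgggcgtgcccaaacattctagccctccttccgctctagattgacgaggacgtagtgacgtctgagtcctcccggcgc
The Cenpf window held 2 CCAAT boxes, 1 TTTGAA and 1 TTTAAA, the Mki67 window 3 CCAAT and 2 TTTGAA, the Top2a window 6 CCAAT and 2 TTTGAA, and the Mcm2 window 1 CCAAT and 1 TTTGAA. The table of promoters held 29 of the 34 members in 32 windows, all 300 bases long, with 2 overlapping or nearby starts each for Ect2, Mcm7 and Prc1. CCAAT was in 28 of these 32 (87.5%), against 37.4% of all 32851 windows, and TTTGAA in 19 (59.4%), against 17.9%. TTTAAA was in 9 (28.1%, against 13.2%) and GCGGGAA in 3 (9.38%, against 4.6%). By role, TTTGAA was in 18 of 23 windows of the members outside DNA replication and in 1 of 9 windows of the replication genes, while GCGGGAA was in 0 and 3. The 1 window with TTTGAA was that of Mcm2, so the window shown is the exception among the replication genes. The 3 with GCGGGAA were 1 of Mcm3 and 2 of Mcm7. Cenpf had CCAAT and TTTGAA in common with Mki67 and Top2a, and its TAC value over both genotypes had the opposite sign (-1.13 for Cenpf, 0.49 for Mki67 and 0.42 for Top2a). The matches describe the letters in these windows and are no test of binding.

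The last class, spindle and cytokinesis, held the motors Kif11, Kif20a and Kif23, the spindle assembly factors Tpx2 and Nusap1, the midzone bundler Prc1, and Anln and Ect2, which organise the contractile ring. All 8 were above 0 over both genotypes for TAC against NS, where 49.8% of all genes were below 0. Their median was 0.38 and their highest value 0.47, and none was called, beside 5.08% of all genes. In Alox5ko alone all 8 were above 0 (50.7% of all genes below 0), and in WT alone 6 of 8 were (49.1% of all genes below 0). Ect2, the exchange factor that switches on RhoA for cleavage, was very low, with 11, 4 and 5 counts in Alox5ko_TAC, 9, 5 and 5 in Alox5ko_NS, 16, 7 and 21 in WT_TAC, and 11, 14 and 10 in WT_NS. Alox5ko_NS lay below WT_NS without overlap in CPM, and the TAC groups overlapped. Ect2 had the smallest p of the members for Alox5ko against WT, at -1.15 with TAC (SE 0.479, adjusted p = 0.512) and -1.09 over both treatments (SE 0.346, adjusted p = 0.259).

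Over the whole set, the TAC values were mixed in sign and moved with single libraries. For TAC against NS over both genotypes, 9 of the 33 tested members were below 0 and 24 above, with a median of 0.11 on the log2 scale, against 49.8% of all genes below 0 and a median of 0.00067. Cenpf, Mcm2 and Pcna, all lower with TAC, were the 3 members with an unadjusted p under 0.05 (19.3% of all genes). In Alox5ko_TAC against Alox5ko_NS, 7 were below 0 (50.7% of all genes), with a median of 0.26 against -0.0028, and Cenpf alone had an unadjusted p under 0.05 (14.5% of all genes). In WT_TAC against WT_NS, 14 were below 0 (49.1% of all genes), with a median of 0.043 against 0.0045. In WT, 0 members were called by edgeR, beside 0.766% of all genes, and 0 by DESeq2, which called 288 of all genes. Mcm2, Cenpf and Pcna, 3 members, had an unadjusted p under 0.05 by edgeR (11.9% of all genes). The 3 libraries of TAC and NS did not overlap for Mcm2, Pcna and Fbxo5 in WT, all 3 lower (8.82% of all genes lower, and 0 members against 10.1% higher). In Alox5ko they did not overlap for Cenpf, lower, and Mcm6, higher (9.02% of all genes lower and 8.98% higher). When 1 library was left out, the number of members below 0 ran from 7 to 15 over both genotypes (median 0.039 to 0.28), from 5 to 17 in Alox5ko (median -0.037 to 0.43) and from 8 to 20 in WT (median -0.15 to 0.16). The count over both genotypes was 15 without Alox5ko_TAC 1 and also without WT_TAC 1, and that in Alox5ko was 17 without Alox5ko_TAC 1 and 11 without Alox5ko_TAC 3. In WT it was 8 without WT_TAC 2. Of the 33 intervals over both genotypes, 20 lay wholly within a 2-fold change either way, and 13, that of Cenpf among them, reached beyond it.

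**Figure D3:**
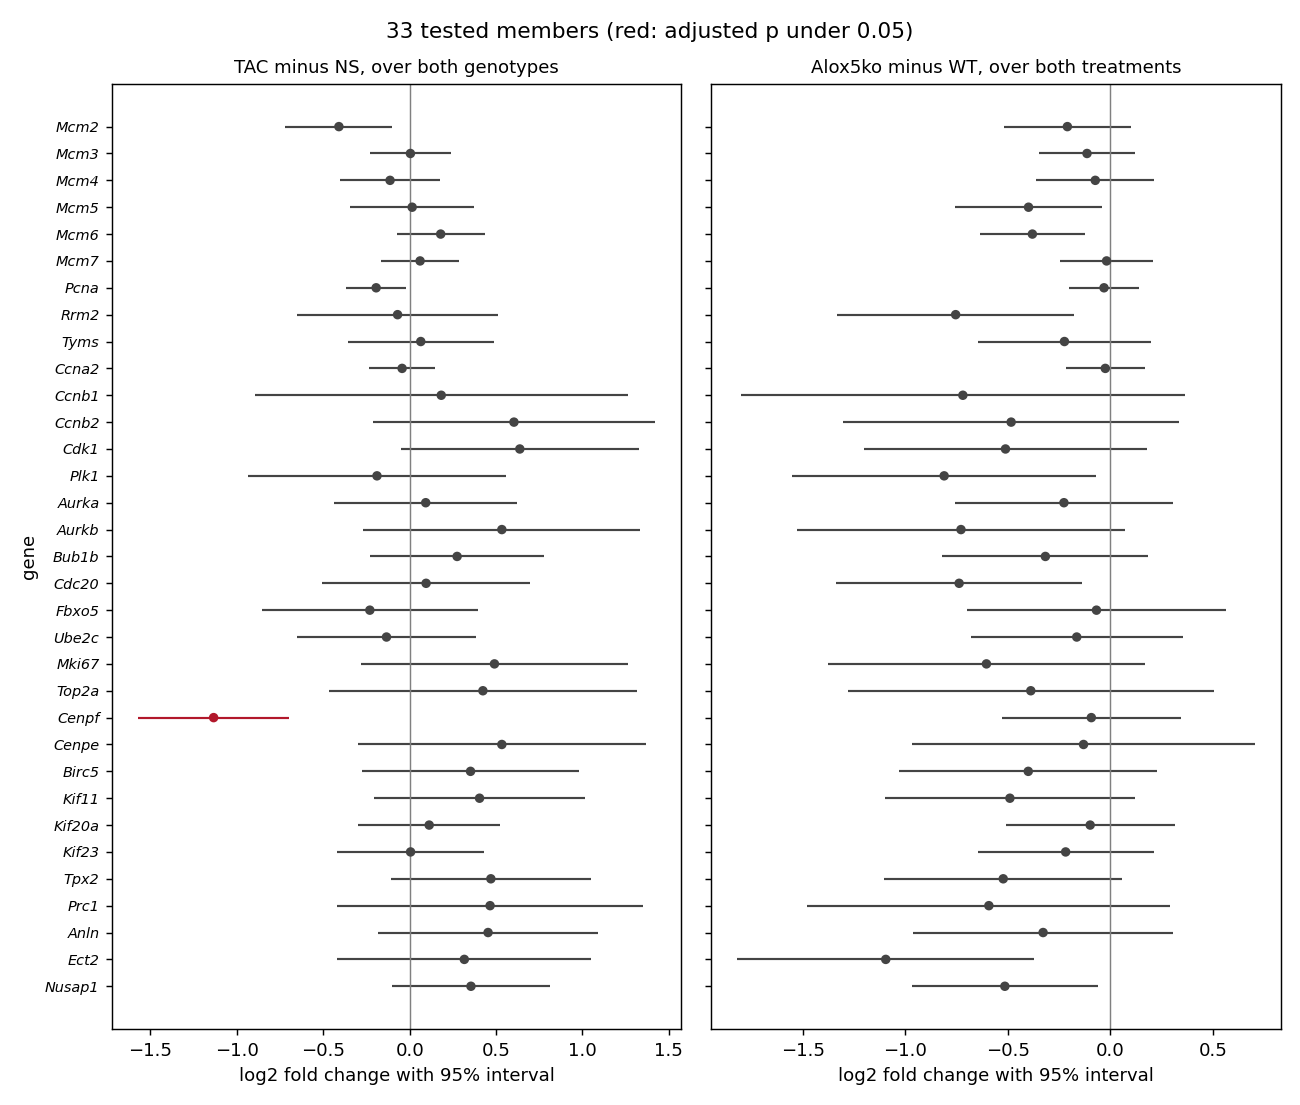
Log2 fold change of the 33 tested members with its 95% interval, for TAC minus NS over both genotypes (left) and Alox5ko minus WT over both treatments (right). Cenpf, in red, is the only one past the threshold, and all 33 lie below 0 on the right.

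By genotype, the members leaned to lower values in Alox5ko and none was called. In Alox5ko_NS against WT_NS, 29 of 33 were below 0, with a median of -0.49, against 49.6% of all genes and a median of 0.0017. There 0 members were called by edgeR, beside 0.0386% of all genes, and 0 by DESeq2, which called 23 of all genes. Mcm6, Rrm2 and Cdc20, 3 members, had an unadjusted p under 0.05 by edgeR (6.36% of all genes). The 3 libraries of each group did not overlap for 9 members, all lower in Alox5ko_NS: Mcm2, Mcm6, Rrm2, Aurka, Cdc20, Mki67, Top2a, Kif11 and Ect2. These are 27.3% of the members, where 7.45% of all genes were lower without overlap and 6.14% higher. In each fit without 1 library, 27 to 30 members were below 0, with a median of -0.54 to -0.37. The members share the same 3 libraries per group, so these counts are not independent observations of genotype. Markers of some other cell types also lay below 0 in Alox5ko_NS against WT_NS, and those of others were mixed or above 0. Smooth muscle and pericyte markers summed to 701 to 896 CPM by library total in Alox5ko_NS and 1013 to 1062 CPM in WT_NS, without overlap. Endothelial markers summed to 371 to 502 CPM by library total in Alox5ko_NS and 515 to 563 CPM in WT_NS. This endothelial gap depended on the scaling. Alox5ko_NS 2, at 502 CPM, had a TMM factor of 0.982 and WT_NS 3, at 515 CPM, one of 1.01. Dividing by these factors makes the endothelial ranges overlap. Of the 8 tested smooth muscle and pericyte markers 7 were below 0 (median -0.52), as were 7 of the 8 endothelial markers (median -0.24). All 7 tested activated fibroblast markers were below 0, with a median of -0.59. In contrast, all 5 tested erythroid markers were above 0 (median 0.40), as were 6 of 8 cardiomyocyte markers (median 0.073). Macrophage markers, with 5 of 9 below 0, were mixed. General fibroblast markers were mixed by gene, with 5 of 8 below 0 and a median of -0.11. Their sums by library total nevertheless did not overlap, at 383 to 433 CPM in Alox5ko_NS and 514 to 592 CPM in WT_NS. None of these markers was called, beside 0.0386% of all genes, and their part in the members' values was not tested.

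In Alox5ko_TAC against WT_TAC, 29 of 33 were also below 0, against 51.4% of all genes, with a median of -0.23. There 0 were called by edgeR, beside 0.109% of all genes, and 0 by DESeq2, which called 55 of all genes. Ect2 and Nusap1, 2 members, had an unadjusted p under 0.05 by edgeR (8.49% of all genes). No member separated the groups without overlap, beside 6.51% of all genes lower and 5.77% higher. Without Alox5ko_TAC 2 the count below 0 was 19, and without both Alox5ko_TAC 2 and WT_TAC 1 it was 11, with a median of 0.11. Over both treatments all 33 were below 0 with a median of -0.38, against 51.1% of all genes, and 0 were called by edgeR, beside 0.154% of all genes, and 0 by DESeq2. An unadjusted p under 0.05 was found for 7 of them, 21.2%, against 9.77% of all genes. Without both libraries 24 were below 0, with a median of -0.12. In the interaction 9 members were below 0 (51.2% of all genes), 0 were called by edgeR, beside 0% of all genes, and 0 by DESeq2, and 0 had an unadjusted p under 0.05 (5.37% of all genes). Its count below 0 ran from 6 to 19 when 1 library was left out, with 19 without Alox5ko_TAC 1 and 14 without WT_NS 2, and its median (0.25) ran from -0.026 to 0.45.

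The spread between libraries was wider for these genes than for most. The median SD of log2 CPM over the tested members was 0.436 in Alox5ko_TAC, 0.187 in Alox5ko_NS, 0.321 in WT_TAC and 0.238 in WT_NS, against 0.148, 0.146, 0.138 and 0.125 over all genes. The members' counts were low, and the part of depth in this spread was not tested. Alox5ko_TAC 2 was the lowest library for 22 of 33 members, 66.7%, and for 7.71% of all genes, and it was the highest for none of the members. WT_TAC 1 was the highest for 11 members, 33.3%, and for 13.9% of all genes.

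The 23 mitosis members other than Cenpf and Ccna2, a grouping made after the values were seen, summed to 68.9, 19.1 and 52.5 CPM (by library total) in Alox5ko_TAC and to 26, 35.2 and 34.8 CPM in Alox5ko_NS. In WT_TAC they summed to 81.9, 41.4 and 54.8 CPM, and in WT_NS to 48.2, 62.2 and 43.5 CPM. So 2 of 3 Alox5ko_TAC libraries lay above all 3 Alox5ko_NS libraries and the third below all of them. The 9 replication members moved far less, at 35.8 to 45.8 CPM in Alox5ko_TAC, 40.9 to 41.7 in Alox5ko_NS, 39.7 to 50.6 in WT_TAC and 48.4 to 50.3 in WT_NS, where the Alox5ko_NS libraries lay wholly below the WT_NS libraries. Without Alox5ko_TAC 2 and WT_TAC 1, chosen after the values were seen, Top2a was called higher in Alox5ko_TAC against Alox5ko_NS at 1.25 (SE 0.198, adjusted p = 0.00194), Mki67 at 1.04 (SE 0.202, adjusted p = 0.0147) and Cenpe at 1.01 (SE 0.275, adjusted p = 0.0491), while Cenpf was at -1.55 with adjusted p = 0.0718. The 2 libraries were picked by the members' own values, so these calls are no test of TAC, and WT_TAC 1 is in neither group compared. Without Alox5ko_TAC 2 alone, neither Top2a at 1.24 (SE 0.307, adjusted p = 0.0683) nor Mki67 at 1.04 (SE 0.290, adjusted p = 0.116) was called. The calls over all genes in Alox5ko_TAC against Alox5ko_NS were 537 without the 2 libraries and 209 with them.

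Markers of activated fibroblasts stood out in some of the same libraries. All marker sums here are CPM by library total. The 8 markers summed to 175, 63.7 and 205 CPM in Alox5ko_TAC, 34.9, 27.0 and 38.7 in Alox5ko_NS, 346, 103 and 128 in WT_TAC, and 63.3, 57.3 and 37.2 in WT_NS. Within each TAC group the library with the lowest marker sum, Alox5ko_TAC 2 and WT_TAC 2, was also the lowest in the mitosis sum. In Alox5ko_TAC the marker sum was highest in library 3 and the mitosis sum in library 1, and in Alox5ko_NS library 2 had the lowest marker sum and the highest mitosis sum. Of the 8, Cthrc1 stayed under 10 counts, at 0 to 6 per library, and Postn was at 379 to 2378. General fibroblast markers summed to 465 to 555 CPM in Alox5ko_TAC, 383 to 433 in Alox5ko_NS, 497 to 914 in WT_TAC and 514 to 592 in WT_NS, highest in WT_TAC 1. The part of these cells in the members' values was not tested. Sums of macrophage markers were 136 to 173 CPM in Alox5ko_TAC, 113 to 153 in Alox5ko_NS, 106 to 152 in WT_TAC and 138 to 160 in WT_NS. T cell markers summed to at most 0.708 CPM and B cell markers to at most 0.681 CPM in any library.

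**Figure D4:**
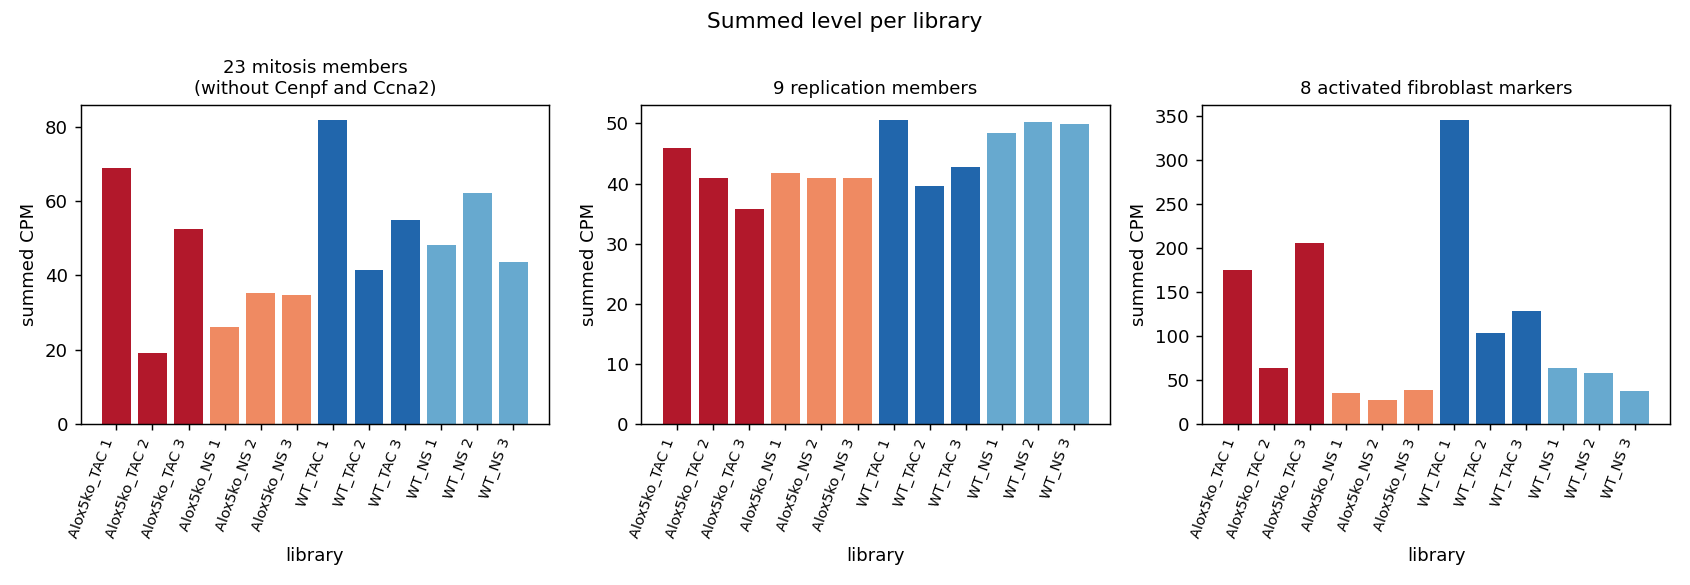
Summed CPM by library total in each of the 12 libraries (bars) for 23 mitosis members, 9 replication members and 8 activated fibroblast markers. The mitosis sum runs from 19.1 in Alox5ko_TAC 2 to 81.9 in WT_TAC 1, and the marker sum is also highest in WT_TAC 1, at 346.

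Of 38 further genes of G2 and mitosis, 32 were tested and none was called in any comparison, beside 0% to 5.08% of all genes by comparison. In Alox5ko_NS against WT_NS, 28 of these 32 were below 0, with a median of -0.43, against 49.6% of all genes. Of 34 further genes of the G1 to S transition and replication, 31 were tested and 1 was called. It was Cdk6, a kinase of G1, which fell by 0.43 with TAC over both genotypes (SE 0.123, adjusted p = 0.0465), where 5.08% of all genes were called. Cdk6 had 2.97, 3.20 and 3.63 CPM in Alox5ko_TAC, 3.70, 5.14 and 3.96 in Alox5ko_NS, 2.91, 3.0 and 3.66 in WT_TAC, and 4.0, 5.10 and 4.22 in WT_NS, so neither genotype's groups overlapped. Of 19 brakes on the cell cycle, 17 were tested and 1 was called. In WT_TAC against WT_NS, 11 of these 17 were below 0, with a median of -0.076, against 49.1% of all genes. The 1 called was Gadd45a, a stress-induced growth arrest gene, which rose by 0.67 in WT_TAC against WT_NS (SE 0.145, adjusted p = 0.0377), where 0.766% of all genes were called. It had 10.5, 14.8 and 12.3 CPM in WT_TAC against 7.90, 7.25 and 8.48 CPM in WT_NS. In Alox5ko, where its groups overlapped and it was not called, it had 10.9, 8.40 and 8.84 CPM with TAC and 8.18, 11.0 and 9.11 CPM without. The difference between the 2 TAC responses of Gadd45a, -0.67, did not pass the test (SE 0.204, adjusted p = 0.636). Over both genotypes its TAC value was 0.33 and was not called (SE 0.102, adjusted p = 0.0629).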

How the data were processed

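Per the labels' protocols, TRIzol-extracted left ventricle RNA was DNase-treated, taken on oligo(dT) beads, made into directional libraries and sequenced as read pairs. Per the submitters' processing notes, HISAT2 and DESeq2 were used, with builds GRCh38 and mm10 named. The counting program, annotation release and strand setting are not given in the sources used here. The authors deposited raw counts per gene, used for all tests, and RPKM values (reads corrected for length and depth), of which 336840 of 336840 were recomputed from the counts within 0.1%. The deposited table also gives a gene length in bases; 32 of the 34 members had the same start and end in GENCODE M21 (GRCm38).

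Counts were fitted in R 4.3.3 by edgeR 4.0.16, which uses limma 3.58.1 (filterByExpr, minimum count 10 and minimum total 15, TMM, robust quasi-likelihood, 1 coefficient per group). P-values were adjusted by Benjamini-Hochberg over 15542 genes. Intervals are 95% and come from the fit. Alternatives were RLE scaling, no filter, DESeq2 1.42.0, a replicate block, the compared libraries alone, and leaving out each library. No libraries were identical, with a chi-square per gene of 5.26 to 31.1 within groups. The labels do not say that libraries came from different animals, so p-values cover only the spread among these samples, which may be technical, and counts limit precision to counting error and that spread.

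Full values were given for 8 genes chosen by name (Mki67, Top2a, Cenpf, Ccnb1, Cdk1, Mcm2, Mcm5 and Pcna), for every member called, for the smallest p in each comparison and for members that failed the filter. The members and lists were chosen with earlier results of these data known.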

Additional observations from a re-analysis of the deposited data

How the results depend on the processing

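Members called were 0 in WT_TAC against WT_NS and 1 without the filter on low counts (Mcm2), 1 without both Alox5ko_TAC 2 and WT_TAC 1, and 0 to 1 when single libraries were left out. In Alox5ko_TAC against Alox5ko_NS the count was 1, and it was 0 with a replicate block, 3 without both libraries, and 0 in each fit without 1 library. Over both genotypes it was 1, with 2 without the filter, 3 without both libraries and 1 to 2 without single libraries. The labels do not say whether replicate numbers pair the samples. Correlations between libraries of the same number were -0.13 to 0.12 over 18 pairs, 2 of them over 0.1. With 3 libraries per group, such correlations cannot decide whether the numbers mark a pairing. With the block Cenpf was at -1.48 in Alox5ko (adjusted p = 0.0646) and at -1.15 over both genotypes (adjusted p = 0.0200), and the number of all genes called was 110 with the block and 119 without it in WT, and 170 with it and 209 without it in Alox5ko. In the other comparisons 0 members were called under every alternative.

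Signs turned only for uncalled values. With the block, Top2a in WT was -0.019 and Mcm5 over both genotypes was -0.00077 for TAC against NS. Without both libraries, Top2a was -0.32 in WT, and for Alox5ko against WT with TAC it was 0.81 and Mki67 0.23, and over both treatments Top2a was 0.027 and Pcna 0.0020. Without single libraries, Top2a ran from -0.32 to 0.28 in WT, and from -0.62 to 0.43 in Alox5ko_TAC against WT_TAC. For TAC against NS over both genotypes Mcm5 ran from -0.14 to 0.12 and Ccnb1 from -0.40 to 0.59. For Alox5ko against WT over both treatments Pcna ran from -0.11 to 0.020 and Cenpf from -0.19 to 0.085. The interaction of Mki67 ran from -0.15 to 0.69. Over all genes the count called in WT_TAC against WT_NS was 119, 17 to 95 without single libraries and 538 without the filter, and in Alox5ko_TAC against Alox5ko_NS 209, 60 to 379 and 756. Without both libraries it was 181 in WT, 537 in Alox5ko and 801 (790 with them) over both genotypes. The causes were not tested.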

Other observations

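Of the further mitosis genes, Kif15, a spindle motor chosen here after its values were seen, had 42, 15 and 18 counts in Alox5ko_TAC and 16, 10 and 8 in Alox5ko_NS, against 28, 23 and 33 in WT_TAC and 25, 35 and 19 in WT_NS. It had a log2 fold change of 1.32 in Alox5ko_TAC against Alox5ko_NS (SE 0.394, adjusted p = 0.106) and of -1.38 in Alox5ko_NS against WT_NS (SE 0.392, adjusted p = 0.534) by edgeR's test, and the 2 comparisons share the Alox5ko_NS libraries. Ckap2, a spindle-associated protein chosen in the same way, had 37, 4 and 11 counts in Alox5ko_TAC and 6, 8 and 15 in Alox5ko_NS, against 20, 28 and 15 in WT_TAC and 9, 9 and 5 in WT_NS. Its WT groups did not overlap, with WT_TAC higher, and its Alox5ko groups did. TAC against NS gave 1.47 in WT (SE 0.593, adjusted p = 0.315) and 1.23 over both genotypes (SE 0.416, adjusted p = 0.104) by the same test.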
